A study of Mus musculus with 40 samples.

Results

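The mice described here are the 5 that received anti-GARP:TGF-β1 WT together with anti-PD-1 FcS and the 5 that received the mIgG2a isotype control, taken by their treatment labels from a series of 40 mice (8 groups of 5). All were BALB/c mice of 6 to 12 weeks that carried a subcutaneous CT26 tumor, grown from 1000000 injected cells of this mouse colon carcinoma line. The mAbs were given intraperitoneally on days 6, 9 and 12, and RNA from fragments of the tumors taken on day 13 was used for stranded mRNA sequencing. Anti-GARP:TGF-β1 WT is a mouse IgG2a with a working Fc part that binds the complex of GARP with TGF-β1, and anti-PD-1 FcS is an antagonist of PD-1 on an Fc-silent mouse IgG2a. The isotype control was motavizumab, an antibody to a respiratory virus, made as a mouse IgG2a. The combination was also set against 3 other groups of 5: the FcD form of the anti-GARP:TGF-β1 antibody, whose dead Fc part does not bind Fcγ receptors, given with anti-PD-1 FcS (the FcD combination), anti-PD-1 FcS alone, and anti-GARP:TGF-β1 WT alone. No mouse carried an engineered allele, and each library is a separate mouse according to the labels.

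GARP, the product of Lrrc32, holds latent TGF-β1 on the surface of regulatory T cells (Tregs), where integrins release the active cytokine that restrains effector T cells. PD-1, the product of Pdcd1, is an inhibitory receptor of activated T cells whose ligands PD-L1 (Cd274) and PD-L2 (Pdcd1lg2) are made by tumor and myeloid cells. Activated T cells and NK cells secrete IFNγ, which acts through JAK kinases on genes for antigen presentation, PD-L1 and families of GTPases that attack intracellular microbes, the guanylate binding proteins (GBPs) and immunity-related GTPases (IRGs).

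Interferons reach such genes through short promoter elements: the interferon-stimulated response element (ISRE, searched as GAAA, any 2 bases, GAAA) and the IFNγ-activated site (GAS, searched as TTCNNNGAA), both on either strand. The promoters of 4 interferon-responsive genes are shown as examples chosen with their values known: Gbp2b and Gbp5, GBPs whose groups did not overlap, Igtp, an IRG whose groups did, and Rsad2, which had the smallest p of the type I interferon genes. The sequences are the 250 bases before the RefSeq start in GRCm38.p6, written 5′ to 3′ on the gene's strand, with the ISRE match in capitals. Gbp2b lies at chr3:142594597-142594846 (plus strand), Gbp5 at chr3:142496684-142496933 (plus strand), Igtp at chr11:58199306-58199555 (plus strand) and Rsad2 at chr12:26456453-26456702 (minus strand).
Gbp2b: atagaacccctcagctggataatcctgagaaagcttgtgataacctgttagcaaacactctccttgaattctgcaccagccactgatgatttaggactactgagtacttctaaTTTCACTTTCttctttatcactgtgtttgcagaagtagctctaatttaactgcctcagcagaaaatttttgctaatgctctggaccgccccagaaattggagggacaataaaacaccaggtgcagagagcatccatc
Gbp5: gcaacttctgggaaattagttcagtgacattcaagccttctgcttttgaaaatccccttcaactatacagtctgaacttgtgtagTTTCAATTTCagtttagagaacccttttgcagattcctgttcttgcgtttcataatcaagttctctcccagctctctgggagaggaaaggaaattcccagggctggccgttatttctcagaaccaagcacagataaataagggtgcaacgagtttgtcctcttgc
Igtp: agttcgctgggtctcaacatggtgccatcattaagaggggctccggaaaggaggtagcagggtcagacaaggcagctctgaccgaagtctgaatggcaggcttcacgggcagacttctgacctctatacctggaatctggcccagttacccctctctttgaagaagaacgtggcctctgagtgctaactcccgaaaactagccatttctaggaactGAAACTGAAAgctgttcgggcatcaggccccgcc
Rsad2: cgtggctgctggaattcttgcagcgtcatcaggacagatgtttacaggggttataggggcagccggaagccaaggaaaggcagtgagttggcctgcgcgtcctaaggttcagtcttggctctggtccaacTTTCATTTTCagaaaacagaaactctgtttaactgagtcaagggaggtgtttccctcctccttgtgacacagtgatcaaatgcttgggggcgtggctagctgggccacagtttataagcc

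Each of these windows holds 1 ISRE match, and those of Gbp5 and Igtp also hold 2 and 1 GAS matches. Of the 18 GBP and IRG genes listed, 10 had an entry in the promoter table, with 11 promoters, of which 10 (90.9%) held the ISRE letters and 6 (54.5%) the GAS letters. Among all 32851 mouse promoters in the table, 2.98% held the ISRE and 7.02% the GAS. Of 29 promoters of the type I interferon list, 11 (37.9%) held the ISRE and 4 (13.8%) the GAS. In the list of the IFNγ pathway 2 of 14 promoters (14.3%) held the ISRE and 4 (28.6%) the GAS. None of the 14 promoters of the mast cell list held either. A match describes letters in this window and does not show that a factor binds there.

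Between 12762129 and 19691830 reads were counted on genes in the 10 tumors, and the totals did not separate the groups (exact permutation test, 2-sided, p = 0.214). Values below are counts scaled for depth by TMM (CPM, which sum to about 1000000 per library), given for the combination libraries 45, 55, 64, 69 and 77 and the isotype libraries 46, 51, 63, 74 and 78, always in that order. A difference is the log2 ratio of combination to isotype from edgeR's quasi-likelihood fit, with its standard error (SE) and its p adjusted over all genes tested. An unadjusted p under 0.05 corresponds here to an adjusted p of at most 0.242. Library 77 of the combination stood apart: its 10 pan-leukocyte genes summed to 5782 CPM against 1446 to 2238 CPM in the other 9 mice, its T cell receptor genes to 581 CPM against 68.4 to 172 CPM, and its MHC class II genes to 13760 CPM against at most 4435 CPM. Its cell cycle genes summed to 4631 CPM, below the 6220 CPM or more of the other 9. Xist was found in libraries 61 to 80, transcripts of the Y chromosome in libraries 41 to 60, and the combination and the isotype group each had 3 mice in the former part and 2 in the latter. The other 3 groups each had 2 and 3, so comparisons with them are unbalanced in library part.

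No gene passed an adjusted p of 0.05 with edgeR (0 of 14760 tested, 0.0%, smallest adjusted p 0.159) or with DESeq2. Limma-voom with sample quality weights, in which library 77 had a weight of 0.1105, called 50 genes (0.339%), 42 of them higher and 8 lower in the combination. At an unadjusted p under 0.05 edgeR gave 3048 genes (20.7%), 1946 higher (13.2%) and 1102 lower (7.47%). Without library 77 it gave 870 of 14866 (5.85%), 418 higher (2.81%) and 452 lower (3.04%). In 199 genes (1.35%) all 5 combination mice lay above all 5 isotype mice, and in 239 (1.62%) all lay below. Counts of list members below are members with an unadjusted p under 0.05 and are to be read against these shares. Because the RNA came from tumor fragments of mixed cell types, fewer cells of a type and less RNA per cell cannot be told apart.

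Among the antibody targets, the PD-1 ligands were higher in the combination and the targets themselves overlapped between groups. Of these 5 genes 0 were higher in libraries 41 to 60 (median -0.22), where 0.711% of all genes were. In libraries 61 to 80 4 were higher (median 1.34), where 19.2% of all genes were, and 2 without library 77 (median 0.77). Their median thus had opposite signs in the parts, also without library 77. The interaction with library part was higher in 3 of these genes at an unadjusted p under 0.05, against 5.53% of all genes. Cd274 (PD-L1) stood at 201, 126, 236, 194 and 285 CPM in the combination mice and at 124, 101, 71.9, 63.6 and 58.5 CPM in the isotype mice, a difference of 1.31 (SE 0.41, adjusted p = 0.159). Every combination mouse lay above every isotype mouse, and without library 77 the difference was 1.17 (SE 0.43). Pdcd1lg2 (PD-L2) had 13.4, 6.37, 16.1, 10.2 and 20.6 CPM against 6.799, 4.71, 2.15, 1.02 and 2.63 CPM, a difference of 1.93 (SE 0.67, adjusted p = 0.159). Library 55 lay just below the highest isotype mouse, and the other 4 combination mice lay above all of them.

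Pdcd1, which encodes PD-1 itself, stood at 6.42, 3.24, 11.01, 4.97 and 46.3 CPM and 14.4, 11.4, 10.1, 9.59 and 6.65 CPM, a difference of 0.46 (SE 0.60, adjusted p = 0.656). Only library 77 exceeded the isotype range while 3 combination mice lay below it, and the difference without that library was -0.71 (SE 0.56). Lrrc32 (GARP) had 3.43, 2.36, 6.51, 4.82 and 13.8 CPM against 4.64, 5.75, 5.07, 3.22 and 1.66 CPM, a difference of 0.60 (SE 0.44, adjusted p = 0.421) that was 0.07 (SE 0.43) without library 77. Its combination values lay below the isotype values in libraries 41 to 60. In libraries 61 to 80 all but the 4.82 CPM lay above them. The difference of 0.07 thus pooled opposite directions in the parts. Tgfb1 differed by 0.21 (SE 0.16, adjusted p = 0.452) and by -0.08 (SE 0.13) without library 77.

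The core of the IFNγ pathway was higher in part. Of 17 listed genes, 9 were higher and 0 lower, with a median difference of 0.45 against 0.01 over all genes tested, and 5 had all combination mice above all isotype mice. Without library 77 4 were higher, with a median of 0.43. Ifng, the cytokine itself, was low but separated the groups, at 2.99, 2.21, 2.85, 1.75 and 5.66 CPM against 1.61, 1.57, 1.46, 0.786 and 0.554 CPM, a difference of 1.36 (SE 0.47, adjusted p = 0.159). The lowest combination mouse lay just above the highest isotype mouse, and without library 77 the difference was 1.03 (SE 0.48).

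Further along the pathway, Socs1, a feedback inhibitor of JAK kinases, stood at 39.1, 30.5, 34.5, 33.4 and 31.9 CPM and 31.8, 19.4, 27.1, 17.8 and 18.4 CPM, a difference of 0.56 (SE 0.21, adjusted p = 0.159) with 4 of 5 combination mice above the isotype range. Irf8, a transcription factor of myeloid cells, differed by 0.80 (SE 0.25, adjusted p = 0.159) and by 0.43 (SE 0.22) without library 77. Ciita, the master regulator of MHC class II genes, had 27.3, 18.7, 39.97, 23.5 and 201 CPM against 17.7, 26.2, 13.3, 13.4 and 11.8 CPM, a difference of 1.91 (SE 0.63, adjusted p = 0.159). Library 77 held several times the level of any other mouse, and without it the difference was 0.73 (SE 0.55). Nlrc5, the regulator of MHC class I genes, differed by 0.56 (SE 0.27, adjusted p = 0.234).

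The GTPases were higher in part. All 17 tested members had a positive difference (median 0.70), 8 were higher and 0 lower at an unadjusted p under 0.05, and in 9 of 17 no combination mouse overlapped the isotype mice, where the share over all genes was 1.35%. Without library 77, 10 were higher and the median was 0.76. Their summed level was 4245, 3510, 4576, 3855 and 3602 CPM in the combination and 3027, 2969, 2300, 1741 and 1698 CPM in the isotype group. Library 77 thus lay within the range of the other combination mice for these genes, unlike for the leukocyte genes, and the isotype mice ran lower in libraries 63, 74 and 78 than in 46 and 51.

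Gbp2b, whose promoter is shown above, stood at 615, 532, 664, 547 and 687 CPM against 396, 420.3, 363, 224 and 237 CPM, a difference of 0.89 (SE 0.39, adjusted p = 0.199). Gbp5, which helps assemble the inflammasome, had 85.9, 73.8, 118, 82.05 and 99.5 CPM against 61.8, 64.4, 47.3, 36.5 and 40.1 CPM, a difference of 0.88 (SE 0.36, adjusted p = 0.183). Gbp9 had 119, 119.7, 147, 126 and 139 CPM against 97.4, 102, 60.1, 71.3 and 67.3 CPM, a difference of 0.71 (SE 0.30, adjusted p = 0.19). In each of these 3 genes the groups did not overlap. Gbp8 differed by 0.94 (SE 0.39, adjusted p = 0.186), with library 77 far above the rest, and by 0.49 (SE 0.38) without it. Igtp, an IRG of vacuole membranes chosen after its values were seen, had 429.6, 369.6, 402, 332 and 255 CPM against 309.6, 269, 249.9, 158 and 133 CPM and differed by 0.68 (SE 0.36, adjusted p = 0.273), with only library 77 inside the isotype range. The near-identical pair Tgtp1 and Tgtp2 may share reads, and both are in the list.

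**Figure D1:**
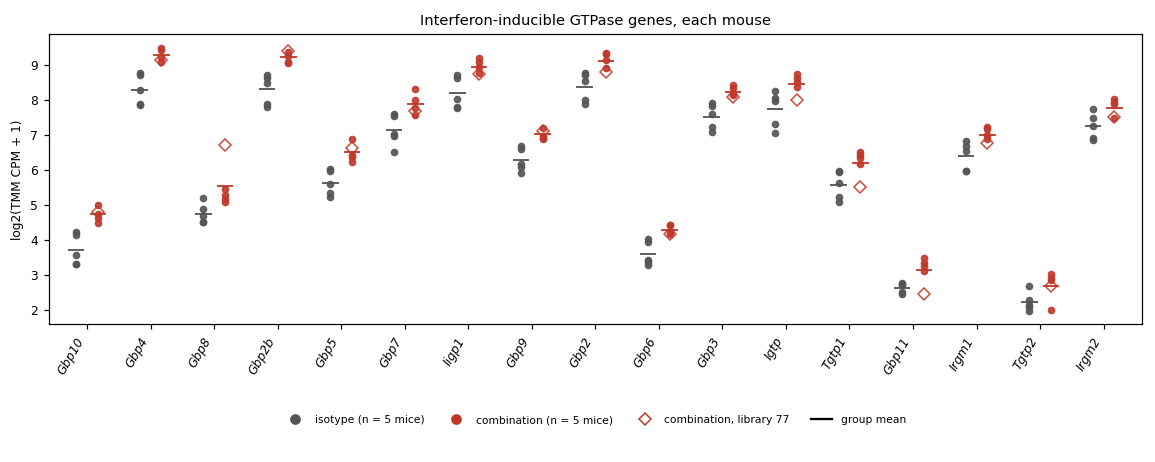
Levels of the 17 GBP and IRG genes as log2(CPM + 1), with 1 point per mouse (5 combination mice in red, library 77 as an open diamond, and 5 isotype mice in grey) and a line at each group's mean of these log values. In Gbp2b all 5 combination mice, from 532 to 687 CPM, lie above all 5 isotype mice, from 224 to 420 CPM, and library 77 stands apart in Gbp8 at 104.8 CPM.

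Genes of the type I interferon response were higher in part, with a smaller median. Of 36 tested, 15 were higher and 0 lower (median 0.35), and 13 were higher without library 77 (median 0.39). In 1 of the 36 the groups did not overlap. That gene was Dhx58, a cytoplasmic RNA sensor, at 59.1, 55.1, 76.4, 55.2 and 72.7 CPM against 53.4, 44.8, 48.2, 44.6 and 38.6 CPM, a difference of 0.47 (SE 0.16, adjusted p = 0.159). Rsad2 (viperin, an antiviral enzyme) had 51.3, 46.4, 157, 102 and 77.00 CPM against 48.4, 39.7, 27.7, 34.97 and 32.1 CPM, a difference of 1.25 (SE 0.34, adjusted p = 0.159). Its highest levels were in libraries 64 and 69 rather than in 77, and library 55 lay inside the isotype range. Mx1, an antiviral GTPase, differed by 0.74 (SE 0.25, adjusted p = 0.159) and Oasl1, which restrains translation of Irf7, by 0.38 (SE 0.13, adjusted p = 0.159).

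In MHC class I antigen presentation the share of genes that were higher at an unadjusted p under 0.05 was no larger than over all genes (13.2%). Of 23 tested genes, 3 were higher and 0 lower (median 0.13), and without library 77 the count was 0. B2m, the light chain of class I molecules, stood at 2433, 2529.7, 2518, 2289 and 3068 CPM against 2206, 2188, 2247, 2209 and 2129 CPM. Its groups did not overlap although the difference was only 0.23 (SE 0.11, adjusted p = 0.247). H2-T23, which encodes Qa-1, differed by 0.49 (SE 0.24, adjusted p = 0.239), and reads of class I genes may be shared between near-identical copies.

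Some genes of cell killing were higher, granzyme B among them. Of 19 tested, 8 were higher and 0 lower (median 0.87), 4 had groups that did not overlap, and without library 77 the count was 4 (median 0.49). Within libraries 41 to 60 the list's median was -0.10, with 12 of 19 members below 0, and within libraries 61 to 80 it was 1.35. Gzmb, a protease that T cells and NK cells deliver into target cells, had 112, 86.6, 143, 151 and 290.3 CPM against 74.98, 52.9, 81.8, 34.7 and 54.1 CPM, a difference of 1.39 (SE 0.40, adjusted p = 0.159). All combination mice exceeded all isotype mice, the closest pair being libraries 55 and 63, and without library 77 the difference was 1.04 (SE 0.39). Tnf stood at 14.1, 11.1, 16.8, 12.6 and 24.8 CPM against 10.1, 8.89, 10.4, 6.13 and 6.17 CPM, a difference of 0.93 (SE 0.34, adjusted p = 0.161), again with no overlap.

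Perforin showed the dependence on library 77 more strongly. Prf1, the pore-forming partner of granzymes, had 54.2, 36.9, 71.5, 84.2 and 159 CPM against 54.9, 37.95, 56.02, 33.9 and 38.7 CPM, a difference of 0.87 (SE 0.39, adjusted p = 0.204), and 0.48 (SE 0.38) without that library. Srgn, the proteoglycan that packs granzymes into granules, differed by 0.84 (SE 0.27, adjusted p = 0.159) and by 0.51 (SE 0.25) without it. In Prf1 2 combination mice lay within the isotype range, and in Srgn 1 did. Several granzymes are near-identical neighbours (Gzmd to Gzmg), so their counts may be split between copies.

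The mast cell genes had the largest median difference of the immune lists with all mice in the fit. Mast cells are tissue-resident granulocytes that store proteases and histamine in granules. Of 13 tested markers, 11 were higher and 0 lower (median 1.75), 6 had groups that did not overlap, and without library 77 10 were higher (median 1.31). With sample quality weights 7 of the 13 passed an adjusted p of 0.05 in limma-voom, against 0.339% of all genes. The listed markers Mcpt1 and Mcpt8 could not be tested because of low counts.

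Cma1 (chymase) stood at 35.2, 24.7, 45.3, 30.3 and 80.9 CPM against 19.7, 11.9, 8.400, 6.36 and 17.6 CPM, a difference of 1.75 (SE 0.47, adjusted p = 0.159). Cpa3 (carboxypeptidase A3) had 31.1, 26.96, 45.9, 30.1 and 98.2 CPM against 17.5, 12.6, 9.16, 6.52 and 20.4 CPM, a difference of 1.81 (SE 0.49, adjusted p = 0.159). In both genes every combination mouse exceeded every isotype mouse, libraries 74 and 63 were the lowest of the isotype mice, and library 77 was the highest of all. Without library 77 the differences were 1.40 (SE 0.47) for Cma1 and 1.34 (SE 0.47) for Cpa3.

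The tryptases were similar. Tpsab1 had 105, 55.4, 124, 99.7 and 235 CPM against 55.8, 28.6, 24.4, 23.02 and 50.02 CPM, a difference of 1.76 (SE 0.46, adjusted p = 0.159). Tpsb2 had 57.98, 32.1, 63.9, 43.9 and 149.5 CPM against 35.05, 18.98, 12.4, 10.1 and 22.03 CPM, a difference of 1.81 (SE 0.48, adjusted p = 0.159). For both, library 55 of the combination lay just below library 46 of the isotype group, and the other 4 combination mice lay above all isotype mice. Il1rl1, the receptor for IL-33 (ST2) that mast cells and Tregs carry, is in neither the mast cell nor the Treg list. It stood at 592, 497, 502, 637 and 439.9 CPM against 464, 367, 336, 430.4 and 375 CPM, a difference of 0.44 (SE 0.18, adjusted p = 0.177). Library 77 was its lowest combination mouse, whereas the 13 mast cell genes together summed to 744 CPM there and to 350 CPM in library 45. Which cells its transcripts came from was not tested.

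**Figure D2:**
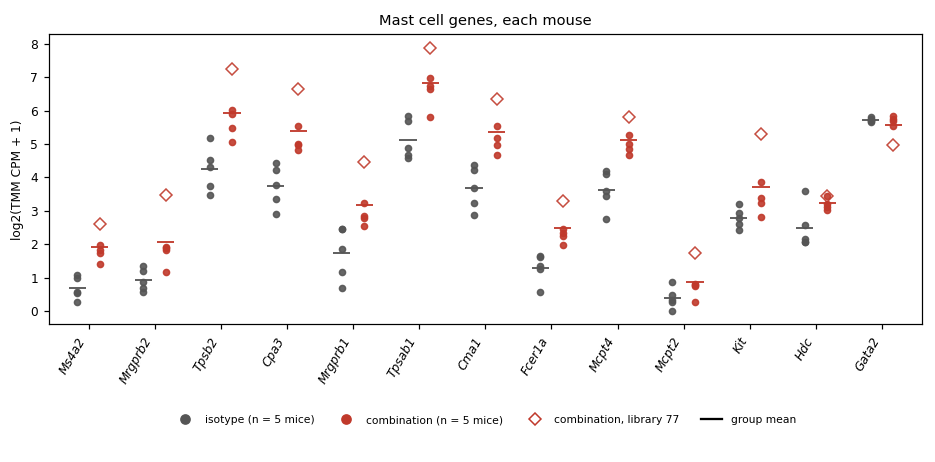
Levels of the 13 mast cell genes as log2(CPM + 1), with 1 point per mouse (5 combination mice in red, library 77 as an open diamond, and 5 isotype mice in grey) and a line at each group's mean of these log values. Cma1 runs from 24.7 to 80.9 CPM in the combination and from 6.36 to 19.7 CPM in the isotype group, so the groups do not overlap.

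Arginine metabolism differed by gene. Of 13 tested members, 5 were higher and 2 lower, and without library 77 3 were higher and 0 lower. Nos2, the inducible nitric oxide synthase of activated macrophages, had 102, 35.7, 68.1, 67.6 and 91.01 CPM against 35.6, 24.5, 14.9, 14.1 and 7.97 CPM, a difference of 1.90 (SE 0.55, adjusted p = 0.159). Library 55 of the combination stood level with library 46 of the isotype group and the other 4 lay well above, library 45 rather than 77 being the highest. Slc7a2, which imports arginine, had 14.00, 5.86, 22.1, 13.6 and 38.2 CPM against 5.501, 4.63, 4.03, 3.22 and 3.602 CPM, a difference of 2.15 (SE 0.57, adjusted p = 0.159). Ass1, which regenerates arginine from citrulline, had 24.6, 17.3, 22.9, 24.8 and 31.1 CPM against 14.3, 16.9, 17.1, 12.96 and 11.9 CPM, a difference of 0.72 (SE 0.25, adjusted p = 0.159), and neither gene overlapped between groups.

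Monocyte and neutrophil lists were higher in some members. Of 14 monocyte genes 4 were higher, and 1, Ly6c2, without library 77. Ly6c2, a surface marker of inflammatory monocytes, had 20.8, 19.5, 27.5, 23.8 and 41.1 CPM against 15.2, 15.2, 14.4, 9.51 and 9.14 CPM, a difference of 1.06 (SE 0.30, adjusted p = 0.159). Ly6a (Sca-1), also an interferon-responsive gene, had 724, 608, 687, 549 and 708 CPM against 516, 473, 399.7, 333 and 269.6 CPM, a difference of 0.72 (SE 0.33, adjusted p = 0.213). Both separated the groups without overlap.

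Of 18 tested neutrophil genes, 7 were higher and 1 lower (median 0.89), and 5 were higher without library 77 (median 0.87). The lineage-defining genes Ly6g, Elane, Mpo, Camp and Ngp could not be tested, and several of the tested genes are also made by macrophages. Clec4d, a C-type lectin of myeloid cells, stood at 50.9, 25.2, 36.7, 25.4 and 76.8 CPM against 22.4, 16.7, 12.1, 7.700 and 8.38 CPM, a difference of 1.67 (SE 0.53, adjusted p = 0.159). Acod1, which makes itaconate in activated macrophages, had 79.3, 42.4, 74.2, 57.7 and 105 CPM against 40.7, 19.4, 30.1, 15.5 and 20.2 CPM, a difference of 1.51 (SE 0.51, adjusted p = 0.159). The groups did not overlap in either gene. Mmp8, a collagenase stored by neutrophils, differed by 1.49 (SE 0.48, adjusted p = 0.159).

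Most chemokines that attract monocytes and T cells were higher. Of 16 tested, 10 were higher and 0 lower (median 0.89), and 6 without library 77. Ccl4, an attractant of T cells and monocytes, had 21.3, 17.4, 24.1, 14.8 and 37.2 CPM against 17.1, 6.500, 10.9, 8.33 and 4.503 CPM, a difference of 1.27 (SE 0.39, adjusted p = 0.159), with only library 69 inside the isotype range. Ccl5, an attractant of the same cells, differed by 1.36 (SE 0.40, adjusted p = 0.159) and by 0.84 (SE 0.37) without library 77. Ccl7, a monocyte attractant, had 83.9, 100.2, 92.02, 78.03 and 94.6 CPM against 71.2, 55.9, 62.2, 63.3 and 55.97 CPM, a difference of 0.54 (SE 0.18, adjusted p = 0.159), and its groups did not overlap. The lymphoid chemokines gave 1 of 17 higher (0 without library 77), and Cx3cl1 differed by 1.36 (SE 0.39, adjusted p = 0.159).

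Of 22 tested inflammatory cytokine genes, 4 were higher and 1 lower (3 and 0 without library 77). Il1rn, the antagonist of the IL-1 receptor, stood at 77.6, 50.3, 97.9, 71.2 and 128 CPM against 48.4, 31.5, 35.96, 22.9 and 23.6 CPM, a difference of 1.39 (SE 0.40, adjusted p = 0.159). Il27, made by antigen-presenting cells, had 3.28, 3.595, 3.98, 3.65 and 7.35 CPM against 2.16, 2.02, 1.94, 1.26 and 1.801 CPM, a difference of 1.25 (SE 0.36, adjusted p = 0.159). Neither overlapped between groups. The next 2 genes are not in this list. Il7r, the IL-7 receptor of lymphocytes, had 15.7, 8.32, 22.9, 19.9 and 50.2 CPM against 7.79, 6.87, 5.76, 3.93 and 3.95 CPM, a difference of 2.04 (SE 0.60, adjusted p = 0.159), also without overlap, and 1.55 (SE 0.60) without library 77. Socs2, a feedback inhibitor of cytokine receptors, was on the other side, at 7.001, 8.99, 7.91, 8.26 and 7.59 CPM against 10.5, 10.5, 10.5, 10.8 and 14.2 CPM, a difference of -0.50 (SE 0.16, adjusted p = 0.159) with all combination mice below all isotype mice.

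Part of the targets of TNF and NF-κB were higher. Of 28 tested, 13 were higher and 1 lower, and without library 77 2 and 1. Sod2, the mitochondrial superoxide dismutase, had 104, 91.99, 83.6, 88.04 and 92.1 CPM against 82.1, 73.2, 80.5, 71.6 and 72.4 CPM, a small difference of 0.27 (SE 0.09, adjusted p = 0.159) in which the groups did not overlap. Nfkb2, a subunit of the noncanonical pathway, stood at 323, 337, 305, 333 and 186 CPM against 361, 368, 403, 427 and 419.5 CPM, a difference of -0.42 (SE 0.13, adjusted p = 0.159). Ikbke, a kinase of interferon and NF-κB signalling, differed by 0.94 (SE 0.28, adjusted p = 0.159) and by 0.45 (SE 0.23) without library 77.

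For the lists that mark leukocytes as such, the difference rested largely on library 77. T cell receptor genes gave 6 of 19 higher with a median of 0.93, and 0 with a median of 0.09 without it. Cd3e, the invariant chain of the receptor, stood at 5.98, 2.82, 8.29, 5.41 and 36.7 CPM against 8.96, 8.89, 6.32, 8.33 and 2.98 CPM, and Cd8a at 11.6, 8.17, 22.8, 10.2 and 79.7 CPM against 18.2, 21.96, 12.9, 18.2 and 6.51 CPM. In both, library 77 was several times higher than the isotype mice and the other combination mice lay mostly inside or below their range, with differences without it of -0.34 (SE 0.51) and -0.24 (SE 0.62). Cd4 differed by 1.17 (SE 0.45, adjusted p = 0.169), with 4 of 5 combination mice above the isotype range, and by 0.86 (SE 0.46) without library 77.

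Macrophage genes gave 15 of 24 higher and 2 without library 77 (medians 0.75 and 0.21). Adgre1 (F4/80) stood at 147, 91.4, 233, 116 and 925 CPM against 97.5, 127, 97.1, 94.2 and 104 CPM, and Apoe at 564, 391, 896, 334 and 4492 CPM against 348, 488, 659.8, 344 and 515 CPM. Library 77 held several times the level of the next mouse in both genes, and without it Adgre1 differed by 0.50 (SE 0.44) and Apoe by 0.21 (SE 0.31). MHC class II genes went from 8 of 11 to 0 (medians 1.13 and 0.53), with H2-Ab1 differing by 1.53 (SE 0.53, adjusted p = 0.159) and by 0.69 (SE 0.48) without library 77.

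The same held for the exhaustion list (9 of 20, then 0), NK receptors (8 of 15, then 0), Fcγ receptors (7 of 8, then 0), complement (11 of 23, then 2) and endothelial genes (10 of 25, then 0). Dendritic cell genes gave 9 higher and 3 lower of 21 (1 and 1 without library 77), and B and plasma cell genes 1 higher of 22 (0). Ptprc (CD45), the general leukocyte marker, differed by 1.17 (SE 0.42, adjusted p = 0.159) and by 0.44 (SE 0.37) without library 77.

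**Figure D3:**
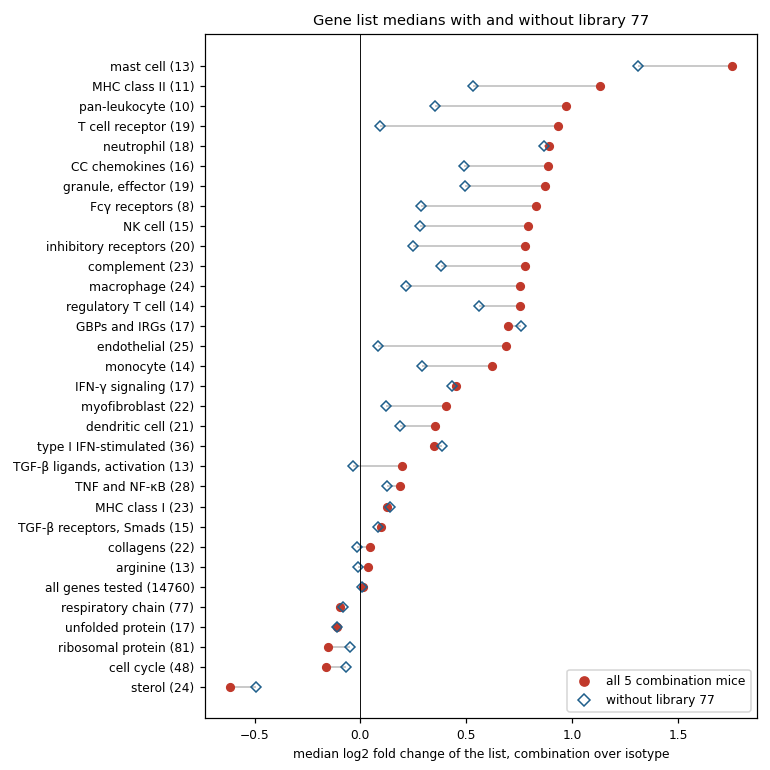
Median log2 difference (combination over isotype) of 31 gene lists and of all genes tested, with the number of genes in brackets, for all 5 combination mice (red circles) and without library 77 (blue open diamonds), joined by a line. Mast cell genes have medians of 1.75 and 1.31 and the GTPases 0.70 and 0.76, whereas T cell receptor genes go from 0.93 to 0.09 and endothelial genes from 0.69 to 0.08.

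Some genes of regulatory T cells were higher, at low levels. Of 14 tested, 7 were higher and 0 lower, and without library 77 3 were higher (medians 0.75 and 0.56). Within libraries 41 to 60 the median was 0.09, with 0 higher and 6 of 14 below 0, and within libraries 61 to 80 it was 1.32, with 10 higher (0.97 with 3 without library 77). Foxp3, the defining transcription factor, had 1.68, 0.719, 2.21, 2.56 and 2.24 CPM against 1.17, 0.523, 0.625, 0.393 and 0.554 CPM, a difference of 1.49 (SE 0.49, adjusted p = 0.159). The values of 4 combination mice lay above the isotype range, library 55 lay inside it, and the highest was library 69. Il2ra (CD25) differed by 1.06 (SE 0.40, adjusted p = 0.164) and by 0.85 (SE 0.41) without library 77, and Ikzf4, a partner of Foxp3, by 1.45 (SE 0.46, adjusted p = 0.159).

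In the TGF-β axis and the stroma 2 or 3 genes of each list were higher at an unadjusted p under 0.05, where the share over all genes was 13.2%. Of 13 genes for ligands and their activation, 3 were higher and 1 lower, and without library 77 1 and 0. Their median was -0.11 in libraries 41 to 60 and 0.42 in libraries 61 to 80 (0.09 without library 77). Thbs1 (thrombospondin, an activator of latent TGF-β) stood at 78.9, 50.4, 123, 118 and 181 CPM against 70.3, 48.4, 38.9, 59.5 and 32.1 CPM, a difference of 1.14 (SE 0.40, adjusted p = 0.159), with only library 55 inside the isotype range. Furin, which cleaves the TGF-β precursor, differed by 0.32 (SE 0.12, adjusted p = 0.167), and Ltbp4, which ties latent TGF-β to the matrix, by -0.38 (SE 0.16, adjusted p = 0.198). Inhba, a subunit of activin A, differed by 0.55 (SE 0.25, adjusted p = 0.209) with 4 of 5 combination mice above the isotype range.

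Of 15 receptor and SMAD genes, 2 were higher and 1 lower, and 0 without library 77. Acvrl1 (ALK1), a receptor of endothelial cells, differed by 0.56 (SE 0.17, adjusted p = 0.159) and by 0.25 (SE 0.14) without it, and Smad3, which carries the TGF-β signal to the nucleus, by -0.26 (SE 0.11, adjusted p = 0.196). Myofibroblast genes gave 2 of 22 higher (median 0.40, and 0.12 without library 77) and collagens 2 higher and 1 lower of 22, which is no larger a share than over all genes, and without library 77 the counts were 1 for the former and 0 for the latter. In libraries 41 to 60 and 61 to 80 the medians were -0.08 and 0.16 for receptor and SMAD genes, -0.17 and 0.82 for myofibroblast genes and -0.31 and 0.22 for collagens. Without library 77 the medians in libraries 61 to 80 were 0.18, 0.49 and 0.21. Acta2 (smooth muscle actin) stood at 7.66, 6.16, 25.9, 11.8 and 64.9 CPM against 7.48, 11.7, 17.4, 11.9 and 11.5 CPM, with 2 combination mice above the isotype range, 2 inside it and 1 below. Col6a1 had a difference of -0.63 (SE 0.28, adjusted p = 0.203).

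The 12 higher genes with the smallest p among those whose groups did not overlap included Slc7a2 and Cma1, described above, and 9 of the others follow. Creg1, a lysosomal glycoprotein, stood at 134, 83.6, 97.7, 92.2 and 268 CPM against 73.1, 70.1, 65.3, 63.02 and 64.6 CPM, a difference of 1.01 (SE 0.25, adjusted p = 0.159). Fth1, the heavy chain of ferritin, had 4772, 3359, 3242, 3628 and 5959 CPM against 3044, 2676, 2945, 2464 and 2432 CPM, a difference of 0.63 (SE 0.17, adjusted p = 0.159). Gla, the lysosomal α-galactosidase, had 41.6, 35.9, 46.8, 36.1 and 70.9 CPM against 29.3, 25.03, 30.8, 19.3 and 21.9 CPM, a difference of 0.87 (SE 0.23, adjusted p = 0.159). These were among the 19 genes named in the text that limma-voom called at an adjusted p of 0.05 (0.0301 for each of the 3), and without library 77 they differed by 0.60, 0.47 and 0.67.

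Lipa, the lysosomal acid lipase that frees cholesterol from its esters, had 85.8, 55.2, 124, 78.9 and 456 CPM against 51.6, 54.9, 50.96, 49.5 and 48.1 CPM, a difference of 1.65 (SE 0.44, adjusted p = 0.159). Library 77 was several times the next mouse, and without it the difference was 0.75 (SE 0.36). Glrx, a glutaredoxin that reduces protein thiols, differed by 1.06 (SE 0.28, adjusted p = 0.159). Malt1, a protease of antigen receptor signalling, differed by 0.62 (SE 0.16, adjusted p = 0.159), and Crem, a transcription factor that answers to cAMP, by 0.56 (SE 0.15, adjusted p = 0.159). Bzrap1 and Aatk, both at low levels, had differences of 1.23 (SE 0.30, adjusted p = 0.159) and 1.09 (SE 0.28, adjusted p = 0.159), and without library 77 of 0.71 (SE 0.25) and 0.61 (SE 0.24).

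Of the gene lists, sterol synthesis had the most lower members. Cells make cholesterol from acetyl-CoA through mevalonate and squalene, and SREBP-2 (Srebf2) raises these enzymes and the LDL receptor when sterol is scarce. This list of 24 tested genes was drawn up after Mvd and Mvk had been seen among the lead genes, and it includes both. Its counts and its place among the lists are therefore a description. All 24 had a negative difference (median -0.61), 18 were lower at an unadjusted p under 0.05, where the share over all genes was 7.47%, and 5 had all combination mice below all isotype mice. Without library 77, 17 were lower (median -0.49).

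Mvd, which makes isopentenyl diphosphate, stood at 15.2, 16.2, 9.23, 16.1 and 9.15 CPM against 20.3, 20.6, 31.9, 35.99 and 28.2 CPM, a difference of -1.05 (SE 0.28, adjusted p = 0.159). Mvk (mevalonate kinase) had 21.5, 22.4, 20.9, 21.3 and 16.8 CPM against 24.97, 23.8, 39.02, 39.6 and 32.8 CPM, a difference of -0.64 (SE 0.18, adjusted p = 0.159). Stard4, a carrier of cholesterol inside the cell, had 50.8, 53.1, 47.1, 56.2 and 25.1 CPM against 63.1, 70.8, 61.7, 85.6 and 82.99 CPM, a difference of -0.65 (SE 0.19, adjusted p = 0.159). The combination mice lay below all isotype mice in these genes and in Nsdhl, a demethylase of the late pathway, at 27.6, 29.9, 23.6, 28.4 and 22.7 CPM against 35.7, 31.7, 34.6, 49.3 and 41.98 CPM. The isotype libraries 63, 74 and 78 ran higher than 46 and 51 in Mvd and Mvk. The summed sterol genes ran from 631 to 1377 CPM in the combination, where library 77 was the lowest, and from 1363 to 2140 CPM in the isotype group. Of 20 promoters of these genes, 1 held the sterol regulatory element (searched as TCACNCCAC on either strand), against 1.05% of all promoters.

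**Figure D4:**
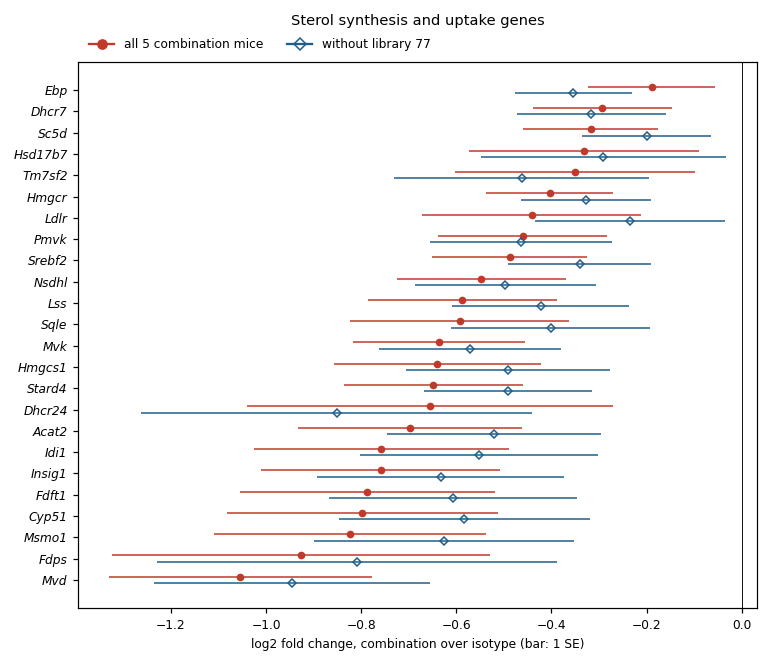
Log2 difference (combination over isotype) of each of the 24 sterol genes, with bars of 1 SE, for all 5 combination mice (red circles) and without library 77 (blue open diamonds). All 24 circles lie below 0, with Mvd at -1.05 and, without library 77, at -0.95.

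The 12 lower genes chosen in the same way included Mvd and Mvk and 10 others of varied roles. Trp53, the tumor suppressor p53, stood at 154, 139.7, 155, 155 and 101 CPM against 189, 183, 195, 189 and 187 CPM, a difference of -0.42 (SE 0.11, adjusted p = 0.159), and -0.32 (SE 0.10) without library 77, which was the lowest of 5 that all lay below the isotype mice. Zfp251, a zinc finger protein, had 21.7, 27.3, 21.2, 19.7 and 20.98 CPM against 29.2, 34.2, 27.5, 28.9 and 30.8 CPM, a difference of -0.44 (SE 0.11, adjusted p = 0.159), and here library 77 lay among the other combination mice. Lmnb2, a subunit of the nuclear lamina, differed by -0.32 (SE 0.09, adjusted p = 0.159), and Ehd2, which stabilises caveolae, by -0.40 (SE 0.10, adjusted p = 0.159). Anxa8 differed by -0.77 (SE 0.22, adjusted p = 0.159), Pcyox1l by -0.62 (SE 0.17, adjusted p = 0.159), Poc1b by -0.30 (SE 0.08, adjusted p = 0.159), Arhgef40 by -0.39 (SE 0.11, adjusted p = 0.159), Tnfaip8l1 by -0.47 (SE 0.14, adjusted p = 0.159) and Tmem63a by -0.27 (SE 0.08, adjusted p = 0.159).

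Cell cycle genes were lower in 14 of 48 (median -0.16), and in 1 without library 77. Aurka, a mitotic kinase, had 68.7, 61.7, 74.00, 75.4 and 40.96 CPM against 78.4, 80.8, 92.96, 85.6 and 80.1 CPM, a difference of -0.38 (SE 0.15, adjusted p = 0.169). Its groups did not overlap, but library 77 alone was far below the others. Of 17 genes of the unfolded protein and amino acid response, 3 were lower (2 without library 77), among them Herpud1, a helper of protein disposal from the endoplasmic reticulum, with a difference of -0.36 (SE 0.13, adjusted p = 0.159), and Asns (asparagine synthetase) with -0.55 (SE 0.20, adjusted p = 0.159), both without overlap. Ribosomal protein genes gave 2 of 81 lower (median -0.15) and oxidative phosphorylation 5 of 77, and 0 and 2 without library 77. Ptgs1 (cyclooxygenase 1) differed by -0.49 (SE 0.17, adjusted p = 0.159) and by -0.31 (SE 0.14) without library 77.

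Among the remaining lists, costimulation genes gave 6 higher of 14 (2 without library 77), the IL-2 and IL-15 axis 7 higher and 2 lower of 16 (5 and 1), eicosanoid genes 7 and 3 of 24 (2 and 1) and adhesion genes 8 of 17 (2). Immediate early genes gave 4 higher and 1 lower of 17 (2 and 0 without library 77), glycolysis and hypoxia 5 higher of 34 (2), and matrix proteases 3 higher and 2 lower of 20 (1 and 0). The chemokines of neutrophils gave 0 of 6, muscle genes 0 of 11, adipocyte genes 2 of 18 higher (0 without library 77), proteasome genes 1 of 31 lower (0) and mitochondrial transcripts 1 higher and 2 lower of 12.

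Markers of other tissues stood apart in particular libraries. All 7 tested erythroid genes were higher (median 2.03), and their sum was 617 CPM in library 45, 229 CPM in library 77 and 29.9 to 93.2 CPM in the other 8 mice. Hbb-bs (β-globin) stood at 347, 26.2, 49.1, 23.01 and 137 CPM against 18.7, 33.6, 54.2, 17.8 and 45.3 CPM, and without library 45 the difference of Hbb-bs went from 1.78 to 0.79 and that of Alas2, the heme synthesis enzyme of red cells, from 2.28 to 1.15. The epithelial list summed to 322.5 CPM in library 77 and to 83.7 to 162.5 CPM in the other 9, and the keratinocyte list to 41.0 CPM and 4.23 to 9.36 CPM. Their part in the results was not tested.

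Of the markers of colon epithelium, the cell of origin of CT26, Vil1, Cdx1 and Muc2 could not be tested. Cdx2, a transcription factor of gut epithelium, was low at 4.23, 3.595, 2.47, 3.799 and 1.62 CPM against 5.62, 3.66, 4.86, 3.38 and 4.16 CPM. Chosen after their values were seen, Krt20 was present in all mice at 58.0 to 141 CPM, and Epcam was at or near 0 in the libraries 45, 55, 46 and 51 and reached 21.9 CPM in library 77.

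The design also allows the combination to be set against its components. Against the FcD combination, which differs in the Fc part of anti-GARP:TGF-β1, 0 genes passed an adjusted p of 0.05 with edgeR or DESeq2, and with edgeR 192 of 14760 (1.3%) had an unadjusted p under 0.05, 72 higher (0.488%) and 120 lower (0.813%), but 796 without library 77. GTPases gave 0 of 17 with a median of 0.00, mast cell genes 0 of 13 with a median of 0.44, and sterol genes 0 of 24 with a median of -0.05. Cd274 differed by 0.04 (SE 0.40, adjusted p = 1.0), Gbp2b by 0.07 (SE 0.39, adjusted p = 1.0), Cma1 by 0.44 (SE 0.46, adjusted p = 1.0), Gzmb by 0.33 (SE 0.39, adjusted p = 1.0), Foxp3 by -0.24 (SE 0.45, adjusted p = 1.0) and Mvd by -0.20 (SE 0.28, adjusted p = 1.0). A p above 0.05 in 5 against 5 mice does not show that these antibodies act alike. Without library 77 the mast cell median was 0.07. With library part as a covariate the counts against this and the next 2 groups were 198, 2605 and 4391 genes at an unadjusted p under 0.05, and 0 at an adjusted p of 0.05.

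Against anti-PD-1 alone, 0 genes passed an adjusted p of 0.05 with edgeR or DESeq2 (538 with edgeR when replicate 2 of the anti-PD-1 group was left out), and 2534 (17.2%) had an unadjusted p under 0.05, 1650 higher (11.2%) and 884 lower (5.99%), but 805 without library 77, 319 higher (2.15%) and 486 lower (3.27%). Mast cell genes gave 8 of 13 higher (median 0.95), killing genes 12 of 19 (median 1.10) and GTPases 2 of 17 (median 0.55). T cell receptor genes gave 17 of 19, but 1 without library 77. Without it, mast cell genes gave 0, killing genes 0 and GTPases 1. Muscle genes were lower in 10 of 11, with and without it. Gzmb differed by 1.14 (SE 0.40, adjusted p = 0.231), Cd274 by 0.98 (SE 0.41, adjusted p = 0.247), Cma1 by 1.01 (SE 0.46, adjusted p = 0.27) and Nos2 by 1.07 (SE 0.54, adjusted p = 0.297).

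Against anti-GARP:TGF-β1 WT alone, 0 genes passed an adjusted p of 0.05 with edgeR, where DESeq2 gave 619 of 31326 and edgeR without library 55 of the combination 1707. With all mice 4361 (29.5%) had an unadjusted p under 0.05, 2443 higher (16.6%) and 1918 lower (13.0%), and 2249 without library 77, 1089 higher (7.33%) and 1160 lower (7.8%). Mast cell genes gave 10 of 13 higher and 1 lower (median 1.28) and GTPases 9 of 17 (median 0.77). Ribosomal protein genes were lower in 36 of 81 (median -0.37) and oxidative phosphorylation genes in 33 of 77. Without library 77 these counts were 4, 11, 7 and 26. Gzmb differed by 1.52 (SE 0.40, adjusted p = 0.0963), Cd274 by 1.498 (SE 0.41, adjusted p = 0.0963) and Cma1 by 1.41 (SE 0.47, adjusted p = 0.0963).

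Set side by side with the isotype group as the shared control, the FcD combination had 10 of 17 GTPases higher, anti-PD-1 alone 0 and anti-GARP:TGF-β1 WT alone 0, where 10.7%, 0.603% and 0.583% of all genes were higher. Their medians were 0.68, 0.18 and -0.04, against 0.70 with the WT combination. For mast cell genes the medians were 1.28, 0.75 and 0.36, against 1.75. Sterol genes had medians of -0.54, -0.37 and -0.24, against -0.61. In these comparisons with the isotype, 2445 genes (16.6%), 141 (0.955%) and 143 (0.969%) had an unadjusted p under 0.05, in the same order of groups.

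**Figure D5:**
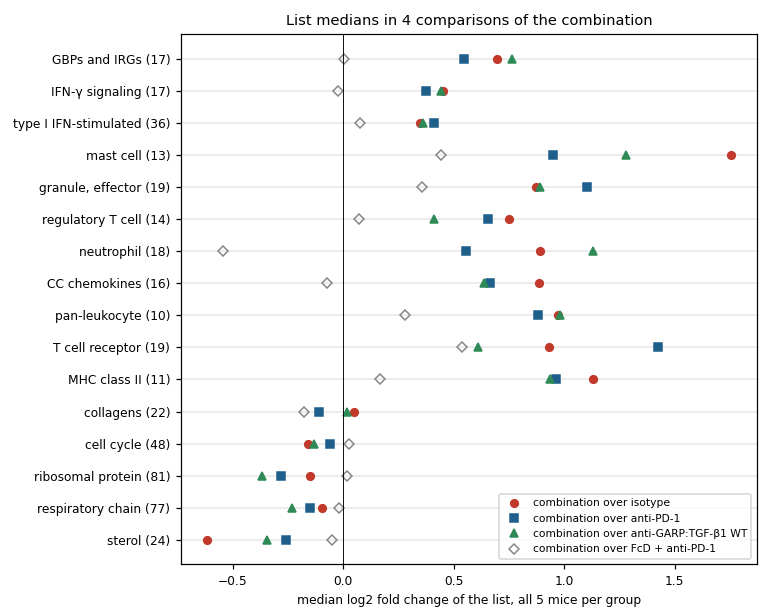
Median log2 difference of 16 gene lists, with the number of genes in brackets, in the WT combination against the isotype (circles), anti-PD-1 alone (squares), anti-GARP:TGF-β1 WT alone (triangles) and the FcD combination (open diamonds), 5 mice a group. The GTPase median is 0.70 against the isotype and 0.00 against the FcD combination, and the mast cell medians are 1.75 and 0.44.

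Within libraries 41 to 60 (2 mice a group), 162 genes (1.1%) had an unadjusted p under 0.05, and within libraries 61 to 80 (3 a group) 5012 (34.0%), and 1678 (11.4%) without library 77, 796 higher (5.39%) and 882 lower (5.98%). By direction, 0.711% of genes were higher and 0.386% lower in libraries 41 to 60, and 19.2% and 14.7% in libraries 61 to 80. GTPases had a median of 0.36 with 0 of 17 higher in libraries 41 to 60, and of 1.00 with 11 higher in libraries 61 to 80 (1.08 with 9 without library 77). Mast cell genes had a median of 0.91 with 0 of 13 higher in libraries 41 to 60, and of 2.23 with 11 higher in libraries 61 to 80 (1.64 with 10 without library 77). Sterol genes had a median of -0.15 with 0 of 24 lower in libraries 41 to 60, and of -0.85 with 20 lower in libraries 61 to 80 (-0.75 with 21 without library 77). The medians of these 3 lists had the same sign in both parts. The medians in libraries 41 to 60 and 61 to 80 were 0.15 and 0.62 (0.59 without library 77) for IFNγ pathway genes, 0.13 and 0.49 (0.58) for type I interferon genes, 0.18 and 1.90 (1.57) for neutrophil genes, 0.33 and 1.47 (0.70) for the CC chemokines, 0.09 and 1.10 (0.41) for macrophage genes and 0.02 and 1.67 (0.86) for MHC class II genes.

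Of 51 lists, 21 had medians of opposite sign in the parts. T cell receptor genes had a median of -0.47 with 0 of 19 higher in libraries 41 to 60, and of 1.59 with 17 higher in libraries 61 to 80 (0.56 with 1 without library 77). Killing genes had a median of -0.10 with 1 of 19 higher in libraries 41 to 60, and of 1.35 with 16 higher in libraries 61 to 80 (0.75 with 3 without library 77). The exhaustion list had a median of -0.16 with 0 of 20 higher in libraries 41 to 60, and of 1.25 with 12 higher in libraries 61 to 80 (0.64 with 2 without library 77). Ribosomal protein genes had a median of 0.28 with 0 of 81 lower in libraries 41 to 60, and of -0.48 with 59 lower in libraries 61 to 80 (-0.38 with 6 without library 77). Oxidative phosphorylation genes had a median of 0.10 with 0 of 77 lower in libraries 41 to 60, and of -0.26 with 28 lower in libraries 61 to 80 (-0.26 with 14 without library 77). The median of each of these 5 lists lay on 1 side of 0 in libraries 41 to 60 and on the other in libraries 61 to 80, also without library 77.

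The difference between the parts, as an interaction term, had an unadjusted p under 0.05 for 1547 genes (10.5%) and an adjusted p of 0.05 for 0. It was higher in 816 (5.53%) and lower in 731 (4.95%). Members with such an interaction were 12 of 24 sterol genes and 56 of 81 ribosomal protein genes, both lower, and 10 of 19 T cell receptor genes, higher, beside 0 of 17 GTPases and 1 of 13 mast cell genes, also higher. The median interaction was -0.73 for sterol genes, -0.76 for ribosomal protein genes, 2.31 for T cell receptor genes, 0.72 for GTPases (16 of 17 positive) and 1.31 for mast cell genes (11 of 13 positive), so the counts do not show that GTPases and mast cell genes differed alike in both parts.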

How the data were processed

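Tumor RNA of 40 CT26-bearing mice was sequenced, and the 10 mice of the combination and isotype groups are reported here. Libraries were stranded and paired-end (Illumina TruSeq mRNA), and the authors aligned the reads to GRCm38 and counted them per gene. The submitters' processing notes name STAR 2.5.3a, SAMtools 1.6 and HTSeq 0.9.1. The authors deposited raw counts of 54087 genes without normalization, of which 31326 had at least 1 count. Of the deposited gene names, 27 read as dates and were matched to no list.

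Counts were scaled with TMM and genes of low counts were removed with filterByExpr, which left 14760. Groups were compared with edgeR 4.0.16 (R 4.3.3), robust quasi-likelihood test, 2-sided, in 1 model of all 40 mice, with Benjamini-Hochberg adjustment over all genes tested. The SE of a log2 difference was computed as the difference over the root of its F statistic. Alternatives were size factors of DESeq2 1.42.0, no filter, DESeq2's Wald test (an adjusted p given as NA was not counted), limma 3.58.1 voom with sample quality weights, only the 2 groups, the library part as covariate, and leaving out each mouse once. A fit within libraries 61 to 80 without library 77 was added after seeing the data. Tests were checked on simulated data. Totals were compared by exact permutation in Python 3.11.15 with numpy 2.4.6, scipy 1.17.1 and pandas 2.3.3.

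Depth per mouse was 12762129 to 19691830 counts. The labels give each library as 1 mouse. As a check for a library deposited more than once, libraries of a group were compared in pairs, and none of the 20 pairs agreed within counting error (chi-square per degree of freedom 5.8 to 198). Replicates were numbered in accession order, and libraries 55 and 77 are replicates 2 and 5 of the combination.

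The members, the 50 gene lists and the tests were chosen with earlier results of these data known. The sterol list was added after the lead genes were seen. Genes were named by a rule: the 12 higher and the 12 lower with the smallest p whose groups did not overlap and whose mean was at least 1 CPM in the higher group, the 4 members of each list with the smallest p, every member of lists of 8 or fewer, and 13 genes of the antibody targets, T cells and killing. Igtp, Epcam and Krt20 fall outside it, as do members of the sterol list that are not lead genes. Promoter sequences were taken from RefSeq (GRCm38.p6) and matched by symbol. Part of the genes that the rule names is not reported here. Flow cytometry and tumor growth were not analysed here.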

Additional observations from a re-analysis of the deposited data

Results flagged for a closer look

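A mouse was singled out where its gap to the nearest mouse of its group, divided by the group's range, exceeded 0.71, the 95% critical value of Dixon's test for 5 values. This occurred in 30 of 198 groups examined, and library 77 was the extreme mouse in 27 of the 30. The critical value gives about 1 in 20 for independent, normally distributed values. It is no reference for this count, because many of the genes were chosen by their p in these same mice. Library 77 was the highest in Pdcd1 (0.82), Irf8 (0.796), Ciita (0.883), Gbp8 (0.86), Srgn (0.71), Cpa3 (0.735), Tpsb2 (0.729), Il27 (0.827), Ccl5 (0.717) and Ikbke (0.775). It was also the highest in Ptprc (0.848), Cd3e (0.839), Cd8a (0.796), H2-Ab1 (0.827), Adgre1 (0.83), Apoe (0.865), Acvrl1 (0.821), Bzrap1 (0.833), Creg1 (0.728), Aatk (0.785), Malt1 (0.722), Lipa (0.829) and Epcam (0.832). It was the lowest in Nfkb2 (0.786), Trp53 (0.714), Anxa8 (0.762) and Mvk (0.732).

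The remaining 3 concerned other mice. Zfp251 was highest in library 55 of the combination (0.729). In the isotype group, Tgfb1 was highest in library 63 (0.823) and Socs2 in library 78 (0.918).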

How the results depend on the processing

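The comparison with the isotype gave 0 genes at an adjusted p of 0.05 under every alternative except voom with sample quality weights (50). At an unadjusted p under 0.05 it gave 3048 genes, 1962 with only the 2 groups in the fit and 870 to 4227 when a mouse was left out, the lowest without library 77. Against the FcD combination the 192 genes became 783 without the filter, 337 with DESeq2 and 163 to 796 when a mouse was left out. Against anti-PD-1 alone the 0 adjusted and 2534 unadjusted genes became 0 to 538 and 805 to 3822 when a mouse was left out, and 939 unadjusted with only the 2 groups. Against anti-GARP:TGF-β1 WT alone the 0 adjusted genes became 619 with DESeq2 and 0 to 1707 when a mouse was left out, and the 4361 unadjusted became 2249 to 5548. The interaction with library part gave 1547 genes, where the parts gave 162 and 5012. The difference in total counts, 1730450, ran from 785618 to 2286910 when a mouse was left out. Some of these fits held fewer mice or genes, and counts moved both up and down when a mouse was left out. The causes of the changes were not tested.

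Under voom the sign of the difference turned for Tgfb1 (-0.0192), Pdcd1 (-0.63), Cd3e (-0.14), Cd8a (-0.14) and Epcam (-0.32). When a mouse was left out, Tgfb1 ran from -0.0844 to 0.345, Pdcd1 from -0.71 to 0.722, Cd3e from -0.34 to 0.992 and Cd8a from -0.24 to 1.00, the lowest value of each without library 77. These were 9 of 1584 values of named genes under alternatives, and 19 of the 1584 passed an adjusted p of 0.05, all under voom. No paired analysis was possible because the replicate numbers follow accession order and pair no mice. With 5 mice a group and this spread, single genes are imprecise, and levels of a few CPM limit genes such as Foxp3 and Ifng.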
